A study of Mus musculus with 16 samples.

Results

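The 9 genes described here encode enzymes that build and supply nucleotides, and they were taken from the count table by symbol, as 9 of the 47069 genes listed. They form a deoxynucleotide supply group of 5 genes (Rrm1, Rrm2, Tyms, Tk1 and Dck) and a synthesis group of 4 genes, in which Cad and Umps make pyrimidines and Ppat and Paics make purines. RNA-seq was performed on macrophages grown from bone marrow (BMMs), taken from C57BL/6 mice aged 8 to 10 weeks and cultured with L929-conditioned media as a source of growth factor. All cells were primed overnight with IFNγ (10 ng/mL) and activated with LPS (100 ng/mL) together with ovalbumin and its antibody as immune complexes (LPS/ICs), and RNA was taken after 1 hr. One group received the gamma secretase inhibitor (GSI) DAPT at 25 μM, which blocks the cleavage of Notch receptors and of other membrane proteins, and the other received the vehicle DMSO at 0.01%. According to the study's methods, both were added overnight before activation. Each group had 2 libraries. Priming and activation were thus shared by both groups, and unstimulated cells were not analysed here. The labels do not say whether the 2 libraries of a group came from separate cultures or animals, and the p-values therefore measure only the spread between these libraries.

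Ribonucleotides serve RNA synthesis, energy transfer and signaling and are made in every cell, whereas deoxyribonucleotides are needed mainly to copy and repair DNA. Ribonucleotide reductase, built from the large subunit Rrm1 and the small subunit Rrm2, converts ribonucleotides into deoxyribonucleotides, thymidylate synthase (Tyms) makes the thymine nucleotide, and the kinases Tk1 and Dck recover deoxynucleosides. In most cells Rrm2, Tyms and Tk1 accumulate around the S phase, while the synthesis of purines and pyrimidines also runs outside it. Bone marrow cells in media with macrophage growth factor divide while they mature, and macrophages hold low deoxynucleotide pools when they stop dividing.

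All 9 genes are protein-coding, and their positions below are those of GRCm38 (mm10). Rrm1 (ENSMUSG00000030978) lies at chr7:102441695-102469771 on the plus strand, Rrm2 (ENSMUSG00000020649) at chr12:24708241-24714146 on the plus strand, and Tk1 (ENSMUSG00000025574) at chr11:117815526-117826092 on the minus strand. Chromosome 5 carries 5 of the 9 genes: Tyms (ENSMUSG00000025747) at chr5:30058202-30073617 and Ppat (ENSMUSG00000029246) at chr5:76913249-76951578 on the minus strand, and Cad (ENSMUSG00000013629) at chr5:31054780-31078479, Paics (ENSMUSG00000029247) at chr5:76951307-76967509 and Dck (ENSMUSG00000029366) at chr5:88764996-88783281 on the plus strand. Umps (ENSMUSG00000022814) lies at chr16:33954782-33967038 on the minus strand. Ppat and Paics stand head to head and share 272 bases of exon on opposite strands, which is 6.15% of the exonic bases of Ppat and 8.67% of those of Paics. The libraries kept strand, but the strand setting of the counting is not given in the sources used here. How reads from the shared bases were counted is therefore not known. Of the 50-base words of each gene's transcripts, from 0% (Dck and Cad) to 9.01% (Paics) also occur in another gene in either orientation. The value was 4.95% for Rrm2 and 5.72% for Tyms. Words from exons that overlap another gene, such as those of Ppat and Paics, are counted here too. A small part of the counts of these genes is therefore uncertain.

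The sequences before the start sites of 4 genes are shown because they cover both subunits of the reductase, which differed in the size of their change, and the deoxynucleotide genes with a smaller change and with no call. Each runs 5′ to 3′ along the strand of its gene, over the 250 bases before the RefSeq start (GRCm38.p6): Rrm1 at chr7:102441445-102441694 (plus strand), Rrm2 at chr12:24708004-24708253 (plus strand), Tyms at chr5:30073626-30073875 (minus strand) and Dck at chr5:88764763-88765012 (plus strand). Capitals mark matches on either strand to an E2F word (TTCCCGC in the best known form, and TTCGCGC as well as TTGCCGC besides TTGGCGC), to the CCAAT box, to the cell cycle homology region (CHR) word TTTGAA or to the E-box word CACGTG.
Rrm1: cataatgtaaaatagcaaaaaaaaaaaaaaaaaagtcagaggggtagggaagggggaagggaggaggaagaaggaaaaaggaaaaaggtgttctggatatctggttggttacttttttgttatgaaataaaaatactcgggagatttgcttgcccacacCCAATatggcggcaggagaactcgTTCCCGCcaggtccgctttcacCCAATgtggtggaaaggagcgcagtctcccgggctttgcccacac
Rrm2: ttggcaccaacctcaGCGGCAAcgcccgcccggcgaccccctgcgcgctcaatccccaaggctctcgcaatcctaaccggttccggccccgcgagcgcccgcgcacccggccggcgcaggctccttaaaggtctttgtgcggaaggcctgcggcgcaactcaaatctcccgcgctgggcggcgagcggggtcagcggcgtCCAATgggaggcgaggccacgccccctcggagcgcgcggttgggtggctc
Tyms: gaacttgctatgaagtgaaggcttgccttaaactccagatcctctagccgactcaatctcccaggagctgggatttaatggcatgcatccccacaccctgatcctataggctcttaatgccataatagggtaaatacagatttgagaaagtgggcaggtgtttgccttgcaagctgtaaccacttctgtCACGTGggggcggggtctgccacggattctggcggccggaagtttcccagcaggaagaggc
Dck: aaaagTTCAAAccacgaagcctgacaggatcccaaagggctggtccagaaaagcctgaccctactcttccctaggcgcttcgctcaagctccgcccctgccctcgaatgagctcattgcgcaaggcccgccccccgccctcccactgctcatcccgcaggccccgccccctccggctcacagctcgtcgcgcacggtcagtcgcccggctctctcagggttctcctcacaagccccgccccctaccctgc

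In the Rrm1 window an E2F word stood at −67 to −61, counted from the start, with CCAAT at −91 to −87 and at −45 to −41. In the Rrm2 window CCAAT stood at −50 to −46, and an E2F word lay on the opposite strand at −235 to −229. The Tyms window held 1 E-box and the Dck window 1 CHR word, and neither held an E2F word. An E2F word was found in 3 of the 9 members (Rrm1, Rrm2 and Ppat), beside 10% of 21263 protein-coding genes with a window of this length. CCAAT was found in 3 members (Rrm1, Rrm2 and Paics) against 35.4% of all windows, CHR in 2 (Dck and Umps) against 14.5%, and the E-box in 2 (Tyms and Paics) against 6.63%. The word GTGGGAA, bound by the Notch partner RBPJ, was in 0 of the 9 windows and in 5.26% of all. Tk1 and Cad, both called lower below, held no match to any of these words, while Ppat, without a call, held E2F words. Whether any of these words had a part in the changes was not tested. No matches overlapped each other, and each is a match of letters in a short window only.

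The 4 libraries held 42694655 to 56932059 counts, and the 9 genes had 122 to 8739 counts per library. Levels are given as CPM, the counts of a gene per 1000000 counts of its library, scaled by the TMM factors of edgeR. Of the 13211 genes that passed the filter on low counts, which included all 9 members, 21.9% were lower and 19% were higher with GSI at an FDR under 0.05 (quasi-likelihood test of edgeR, adjusted by Benjamini-Hochberg over all genes tested). The median log2 fold change of all genes tested was 0.01. The markers of macrophages were present, with 8 of 8 above 3 counts in every library and a summed level of 12300 to 12500 CPM with DMSO and 9490 to 10400 CPM with GSI. Of these 8 markers 6 were lower, such as Csf1r (−0.56, FDR 3.43e-05) and Cd14 (−0.64, FDR 1.6e-06), and 1 was higher, Mertk (0.64, FDR 1.62e-06), and their part in the results below was not tested. Those of neutrophils and their precursors summed to 0.581 to 1.29 CPM (Elane and Retnlg at 0), of lymphocytes to 0.511 to 1.16 CPM (Cd3g and Ncr1 at 0), of stromal cells to 0.496 to 1.09 CPM (Col3a1 at 0) and of erythroid cells to at most 0.0405 CPM, with 5 of 6 at 0. The lists for dendritic cells (179 to 186 CPM with DMSO, 113 to 115 CPM with GSI) and for progenitors (1780 to 2280 CPM) rested almost wholly on Clec9a and on Ly6a. The progenitor marker Cd34, which the study's heatmaps of genes chosen on these samples also label, fell from 9.92 and 11 CPM to 2.36 and 2.69 CPM (log2 fold change −2.05 ± 0.128 SE, FDR 1.66e-10). In the same list Kit rose from 0.488 and 0.617 CPM to 1.12 and 0.871 CPM (0.83, FDR 0.0233), a call that DESeq2 did not make, and Ly6a was higher in both treated libraries without passing (0.2, FDR 0.07). The part of such cells in the results below was not tested.

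The GSI-treated libraries had lower levels of 6 of the 9 nucleotide synthesis enzymes, and 0 of 9 were higher, against a background of 21.9% of all genes tested that were lower and 40.8% that were called in either direction. The 6 were Rrm2, Tk1, Rrm1, Tyms, Cad and Paics, and Dck, Umps and Ppat did not pass the test. The same 6 had both GSI-treated libraries below both controls, as 34.8% of all genes tested did, and 0 of 9 had both above (35.8% of all genes tested). In the deoxynucleotide group 4 of 5 genes fell, with a median log2 fold change of −0.88 over the 5. In the synthesis group 2 of 4 fell, with a median of −0.17 over the 4. The count of 4 held in each alternative setting, whereas the count of 2 was 1 with DESeq2 and without DMSO replicate 1, and 0 without DMSO replicate 2 or GSI replicate 1. None of the 9 was higher at an unadjusted p under 0.05 or with DESeq2 either. Because the cells were measured in bulk, fewer cells that express a gene and less of its RNA per cell cannot be told apart.

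**Figure D1:**
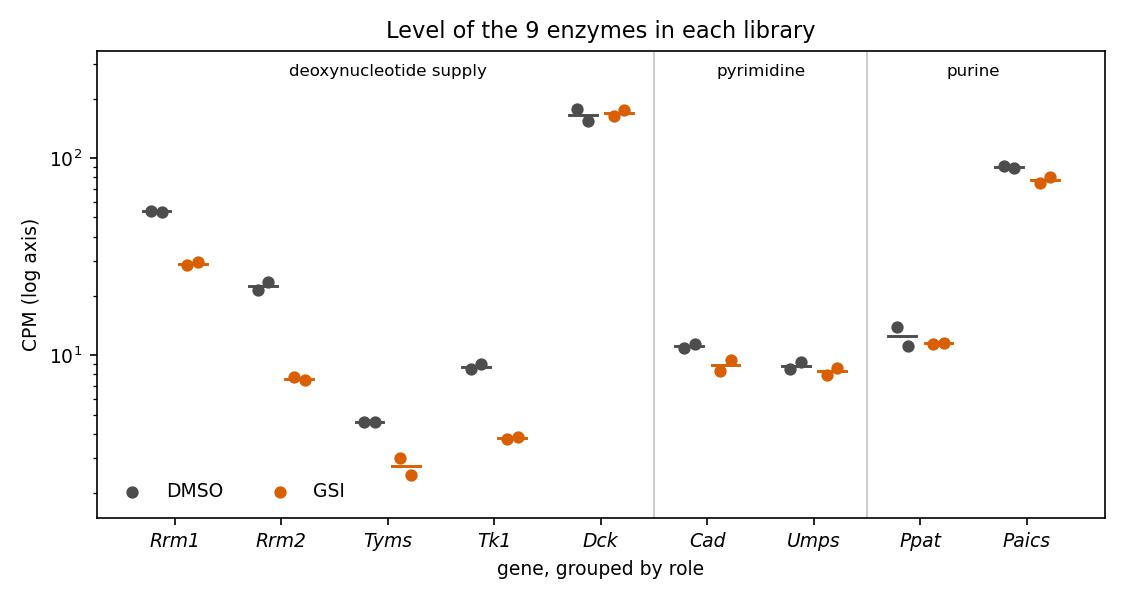
Level of each of the 9 enzymes in each of the 4 libraries, in CPM on a log axis, with a dot for each library and a short line for the mean of each group of 2. The dots of the GSI group lie below those of the DMSO group for Rrm1, Rrm2, Tyms, Tk1, Cad and Paics, and the groups overlap for Dck, Umps and Ppat.

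Within ribonucleotide reductase both subunits fell, the small one by the larger size. Rrm2, which carries the radical of the enzyme, was at 21.5 and 23.6 CPM with DMSO and at 7.76 and 7.47 CPM with GSI. Both GSI-treated libraries were below both controls and close to each other. The log2 fold change was −1.57 ± 0.0954 (SE, n = 2 libraries per group, 95% interval −1.77 to −1.37) with an FDR of 1.14e-10 in edgeR's test. Rrm2 was the only member below −1.5, a size reached together with an FDR under 0.05 by 2.17% of the genes tested, while 0 of 9 were above 1.5 (0.742% of the genes tested). It stayed below −1.5 in 11 of 11 alternative settings, with its smallest change at −1.5 after rounding. Rrm2 is labelled in the study's heatmap of cell cycle genes, which were chosen for their change in these samples, so its direction is not independent evidence.

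Rrm1, the catalytic and regulatory subunit, was at 54.1 and 53.3 CPM with DMSO and at 28.6 and 29.8 CPM with GSI. The groups were well apart and each was tight, and the log2 fold change was −0.88 ± 0.0743 (SE, 95% interval −1.03 to −0.72, FDR 1.05e-08, edgeR). The 95% intervals of the 2 subunits did not overlap. As a ratio of CPM per kilobase (kb) of the main transcript, Rrm2 to Rrm1 was 0.725 and 0.808 in the controls and 0.494 and 0.458 with GSI, so the small subunit transcript was scarcer relative to the large one in both treated libraries. A ratio within a library shows an unequal change only.

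Rrm2b, the alternative small subunit that is used outside S phase and is induced by p53, is not one of the 9 genes and was read beside them. Its level was 11.7 and 9.92 CPM in the controls and 9.5 and 9.05 CPM after GSI, a log2 fold change of −0.22 ± 0.107 (SE) that did not pass (FDR 0.11, edgeR, with 0.0163 to 0.623 over the alternatives). Per kb, the Rrm2b level was 0.262 and 0.202 of that of Rrm2 in the controls, and 0.589 and 0.582 of it in the GSI-treated libraries. The ratio was therefore higher in both treated libraries, with Rrm2 falling and Rrm2b without a call.

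Thymidine nucleotides are supplied by Tyms, which methylates dUMP, and by Tk1, which phosphorylates thymidine taken up by the cell. Tk1 was at 8.53 and 9.01 CPM with DMSO and at 3.77 and 3.85 CPM with GSI. The treated libraries were far below the controls, with a log2 fold change of −1.21 ± 0.118 (SE, 95% interval −1.45 to −0.96, FDR 8.51e-08, edgeR). Tyms was the member with the fewest reads, at 198 and 261 counts in the controls and 145 and 122 with GSI. These counts correspond to 4.6 and 4.6 CPM against 3 and 2.47 CPM, and the groups did not overlap. Tyms fell by 0.75 on the log2 scale (SE 0.146, 95% interval of the change −1.06 to −0.45, FDR 0.00034, edgeR), which is the least precise value among the 9.

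Dck, the kinase that recovers deoxycytidine and the purine deoxynucleosides, stood apart from the other 4 deoxynucleotide genes. It was at 178 and 154 CPM with DMSO and at 163 and 175 CPM with GSI, and the groups overlapped. The log2 fold change was 0.03 ± 0.077 (SE, 95% interval −0.13 to 0.19, FDR 0.785, edgeR), and this interval lies outside the intervals of Rrm1, Rrm2, Tyms and Tk1. The ratio of Dck to Tk1, in CPM per kb, was 9.74 and 8 in the controls and 20.3 and 21.3 with GSI. Dck also set most of the summed level of its group: the 5 genes summed to 266 and 245 CPM in the controls and to 206 and 219 CPM after GSI, but without Dck, a choice made after its values were seen, to 88.7 and 90.5 CPM against 43.1 and 43.6 CPM.

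**Figure D2:**
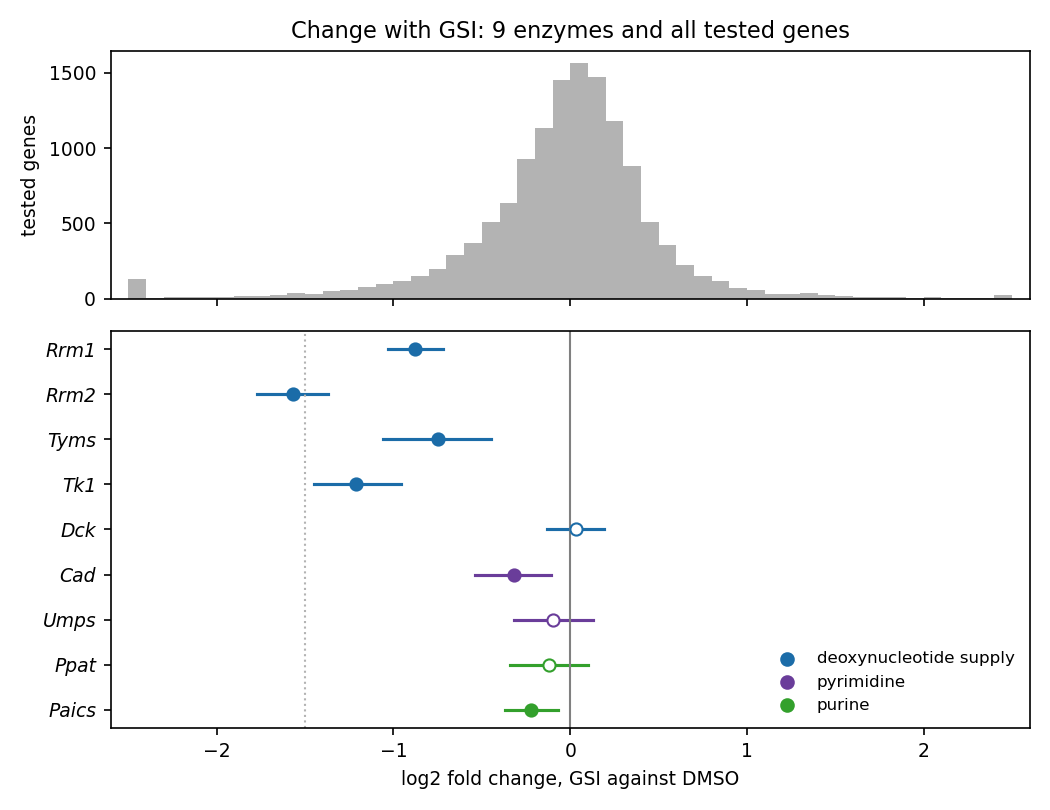
Log2 fold change (GSI against DMSO) of the 9 enzymes, as dots with 95% intervals from edgeR (filled where the FDR was under 0.05, with a dotted line at −1.5), below a histogram of all 13211 genes tested on the same axis, whose end bars also hold the values beyond its ends. Rrm2, Tk1, Rrm1 and Tyms lie farthest to the left, at −1.57 to −0.75, and Dck lies at 0.03.

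In the synthesis group the changes were small. Cad, which carries out the opening steps of pyrimidine synthesis in a single protein, was at 10.9 and 11.4 CPM with DMSO and at 8.3 and 9.52 CPM with GSI. The groups did not overlap, although the GSI-treated libraries differed from each other more than the controls did. Its log2 fold change was −0.32 ± 0.104 (SE, 95% interval −0.54 to −0.11, FDR 0.0172, edgeR). This call was lost with DESeq2 (FDR 0.0632), without DMSO replicate 2 (FDR 0.0868) and without GSI replicate 1 (FDR 0.144), and over all alternatives the FDR ran from 0.00127 to 0.144.

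Umps, which completes pyrimidine synthesis by making UMP, was at 8.48 and 9.22 CPM with DMSO and at 7.99 and 8.61 CPM with GSI. The groups overlapped, and the log2 fold change of −0.1 ± 0.106 (SE, 95% interval −0.32 to 0.13) did not pass (FDR 0.498, edgeR). The ratio of Cad to Umps, in CPM per kb, was 0.629 and 0.601 in the controls and 0.507 and 0.54 with GSI.

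Ppat, the committing enzyme of purine synthesis, was at 13.9 and 11.2 CPM with DMSO and at 11.4 and 11.6 CPM with GSI. Its groups overlapped, with the controls farther apart than the treated libraries (log2 fold change −0.12 ± 0.106 SE, 95% interval −0.34 to 0.1, FDR 0.397, edgeR). Paics, which carries out later steps of the same pathway, was at 90.9 and 89 CPM with DMSO and at 74.5 and 79.9 CPM with GSI. Both treated libraries were below both controls, and the log2 fold change was −0.22 ± 0.0712 (SE, 95% interval −0.37 to −0.07, FDR 0.0176, edgeR). The Paics call was lost without DMSO replicate 1 (FDR 0.0984), DMSO replicate 2 (FDR 0.0514) or GSI replicate 1 (FDR 0.118), with a range of 1.2e-06 to 0.118 over all alternatives. The ratio of Paics to Ppat, per kb, overlapped between the groups (10.5 and 12.8 in the controls, 10.5 and 11.1 after GSI).

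The contrast between deoxynucleotide supply and synthesis was read in each library as the mean log2 CPM of the 5 genes minus that of the 4 genes. It was 0.38 and 0.42 in the controls and −0.21 and −0.35 in the treated libraries, and the groups did not overlap. Its level and sign depend on the lengths of the transcripts, which CPM does not correct for, so it is read only as a difference between libraries. The 4 synthesis genes summed to 124 and 121 CPM in the controls and to 102 and 110 CPM after GSI. The difference in the mean log2 measure between the groups was −0.68, and with 2 libraries per group the exact 2-sided permutation test cannot give a p below 0.33. Without Dck the same measure was −0.34 and −0.25 in the controls and −1.12 and −1.28 in the treated libraries, a difference of −0.91. The matching measure for pyrimidine minus purine genes overlapped between the groups, at −1.88 and −1.62 for the controls and −1.83 and −1.75 for GSI. Among all genes tested, ordered from the lowest log2 fold change upward, Rrm2 stood at percentile 1.94, Tk1 at 3.22, Rrm1 at 5.75 and Tyms at 7.3. The synthesis genes stood at 20.7 (Cad), 27 (Paics), 35.6 (Ppat) and 37.8 (Umps), and Dck stood at 51.9.

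**Figure D3:**
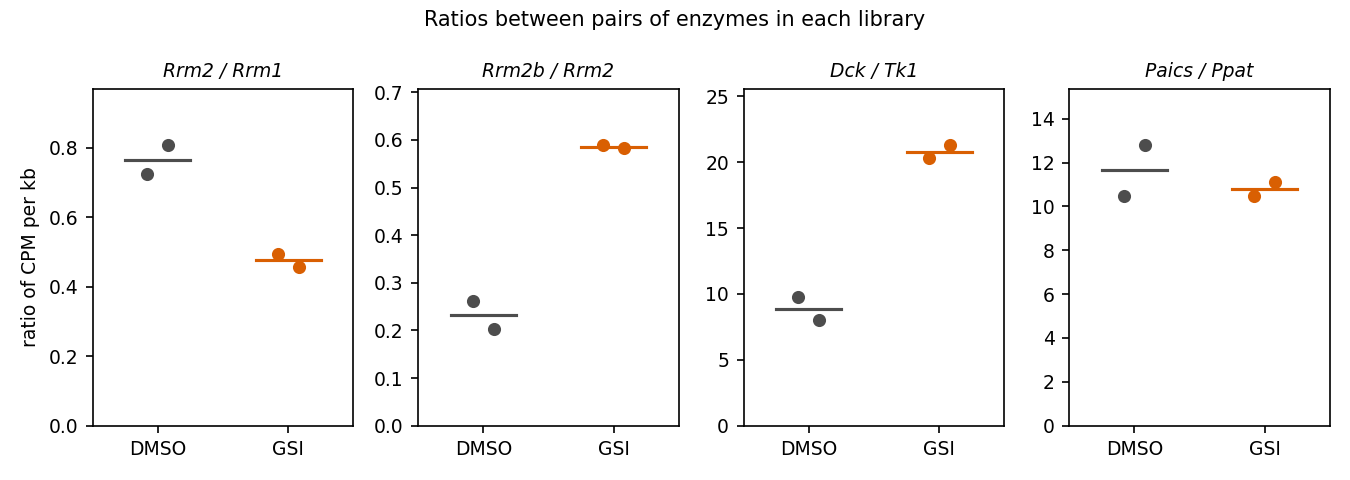
Ratios between the levels of pairs of enzymes, in CPM per kb of transcript, on linear axes from 0. Each dot is 1 library and each line the mean of a group. Rrm2 to Rrm1 is lower in both GSI-treated libraries (0.494 and 0.458, against 0.725 and 0.808), Rrm2b to Rrm2 and Dck to Tk1 are higher, and Paics to Ppat overlaps between the groups.

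Per kilobase of the main transcript, the levels in the controls ran in the order Dck (53.9 CPM per kb), Paics (36.2), Rrm1 (13.4), Rrm2 (10.3), Tk1 (6.09), Ppat (3.15), Umps (2.54), Cad (1.56) and Tyms (1.45 CPM per kb). With GSI the order was Dck (55 CPM per kb), Paics (31.1), Rrm1 (7.3), Rrm2 (3.47), Ppat (2.88), Tk1 (2.64), Umps (2.38), Cad (1.25) and Tyms (0.865 CPM per kb). Tk1 was thus above Ppat in the controls and below it with GSI. In each group every gene was above the next in both libraries, but Cad and Tyms in the controls (1.53 and 1.59 against 1.45 and 1.45 CPM per kb) and Ppat and Tk1 with GSI (2.86 and 2.91 against 2.61 and 2.67 CPM per kb) were close. These levels depend on which transcript is taken as the main one.

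The other genes of the same pathways went both ways. Of 56 further genes in lists of deoxynucleotide supply, pyrimidine synthesis, purine synthesis, salvage and breakdown, 52 were tested, of which 13 (25%) were lower, 15 were higher and 24 did not pass, with a median log2 fold change of 0 over the 52. Over all genes tested 21.9% were lower and 19% were higher. The share of lower genes was thus near the background, and that of higher genes was above it. Among the other 12 deoxynucleotide genes, 2 were lower and 4 were higher, with a median of 0.08. Dut, which removes dUTP and makes the substrate of Tyms, fell from 7.37 and 7.7 CPM to 5.19 and 5.65 CPM (log2 fold change −0.48 ± 0.115 SE, FDR 0.00243, edgeR). Dtymk, which acts on the product of Tyms and Tk1, was at 6.41 and 6.52 CPM against 5.94 and 6.8 CPM, and its log2 fold change of −0.02 did not pass (FDR 0.899). Cmpk2, a mitochondrial nucleotide kinase that is also induced by interferon, rose from 143 and 136 CPM to 247 and 217 CPM (log2 fold change 0.73 ± 0.0757 SE, FDR 1.65e-07, edgeR). The count of 15 higher genes dropped to 10 with DESeq2 and to 8 without DMSO replicate 1.

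The remaining steps of both synthesis routes were mostly without a call. In pyrimidine synthesis 0 of 4 genes passed in edgeR's test and 0 of 4 with DESeq2, while 1 of 4 had an unadjusted p under 0.05: Dhodh, the mitochondrial enzyme between Cad and Umps, at 5.42 and 5.27 CPM with DMSO and 6.33 and 6.64 CPM with GSI (log2 fold change 0.28 ± 0.117 SE, FDR 0.0619). Ctps, which makes CTP, had a log2 fold change of −0.28 (FDR 0.14). In purine synthesis 3 of 13 further genes were lower (23.1%, beside 21.9% of all genes tested) and 1 was higher. Gart (−0.07, FDR 0.519), Pfas (0, FDR 0.986), Adsl (0.06, FDR 0.559) and Atic (−0.05, FDR 0.642), which act with Ppat and Paics on the route to IMP, did not pass, nor did Impdh1 (0, FDR 0.979) and Impdh2 (−0.09, FDR 0.38), which turn IMP toward GMP.

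The 3 further purine genes that fell act before or after that shared route. The member Paics, on the route itself, was lower too (−0.22, FDR 0.0176, edgeR). Prps2, which makes the ribose phosphate used by Ppat, fell from 31.3 and 28.8 CPM to 18.9 and 20.7 CPM (log2 fold change −0.6 ± 0.0844 SE, FDR 9.1e-06, edgeR), whereas its paralog Prps1 did not pass (0.02, FDR 0.89). Adss (−0.53, FDR 5.54e-06) and Adssl1 (−0.47, FDR 7.17e-05), which turn IMP toward AMP, fell as well. Guk1, which phosphorylates GMP, rose by 0.21 on the log2 scale (FDR 0.0425) as the sole higher gene of this list, of which DESeq2 called 0 higher.

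Among 11 salvage genes 5 (45.5%) were lower and 4 were higher, beside 21.9% and 19% of all genes tested. DESeq2 called 5 lower and 3 higher. Uck2, a uridine and cytidine kinase, fell from 3.3 and 3 CPM to 1.72 and 1.36 CPM (log2 fold change −1.03 ± 0.179 SE, FDR 0.000106, edgeR), and Uprt fell by 0.59 on the log2 scale (FDR 0.000367). Upp1, which splits uridine into uracil and ribose phosphate, rose from 79.6 and 83.4 CPM to 108 and 111 CPM (0.42 ± 0.07 SE, FDR 6.29e-05). Of the purine salvage enzymes, Adk (−0.41, FDR 0.00107) and Hprt (−0.24, FDR 0.0145) were lower and Aprt was higher (0.33, FDR 0.000937).

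**Figure D4:**
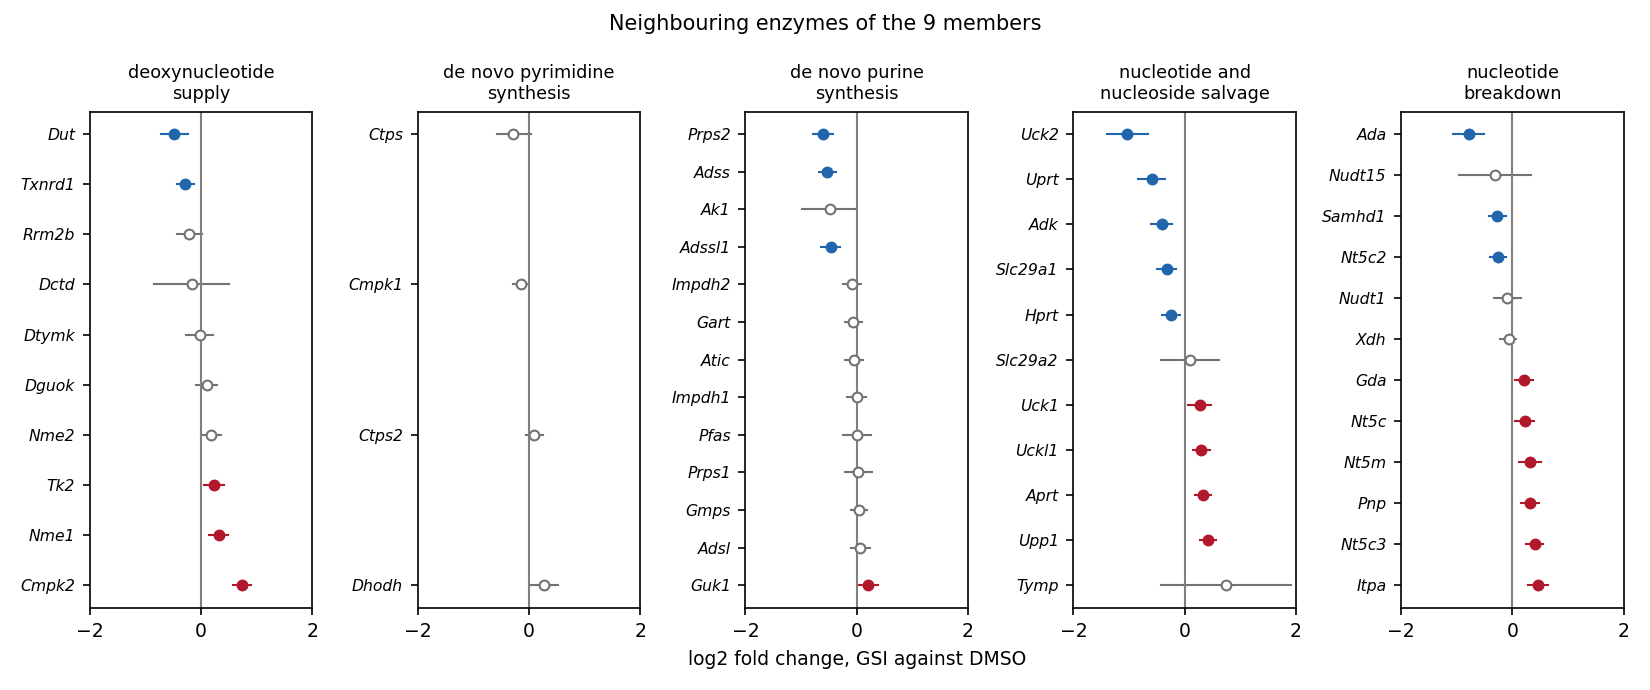
Log2 fold change (GSI against DMSO) of genes of the further pathway lists, with 95% intervals from edgeR, and with blue dots for lower, red dots for higher and open dots for genes with an FDR of 0.05 or more. Each list but that of pyrimidine synthesis holds both lower and higher genes, and the medians of the whole lists lie between −0.05 and 0.1.

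Genes of the cell cycle moved with the deoxynucleotide members. Of 12 proliferation markers 11 were lower, with a median log2 fold change of −0.76 and a summed level of 909 and 918 CPM with DMSO and of 643 and 653 CPM with GSI. The exception was Pcna, the clamp of DNA polymerase, at 266 and 281 CPM against 266 and 279 CPM (log2 fold change −0.01, FDR 0.938, edgeR). Top2a (−1.28, FDR 4.73e-11) and Ccna2 (−1.37, FDR 5.42e-10) were nearest in size to Rrm2 and Tk1, while the mitotic cyclin Ccnb1 (−0.88, FDR 6.16e-07) was nearest to Rrm1 and the helicase subunit Mcm5 (−0.74, FDR 2.39e-07) to Tyms. Against Mki67, another proliferation marker, the CPM of Rrm2 was 0.0921 and 0.104 of it in the controls and 0.0487 and 0.0523 of it with GSI. The same ratio for Rrm1 was 0.231 and 0.235 in the controls and 0.18 and 0.208 after GSI. The part of the share of dividing cells in the changes of Rrm1, Rrm2, Tyms and Tk1 was not tested.

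Regulators with known sites at nucleotide synthesis genes were read beside them. Myc, a transcription factor for which Cad is a classical target, fell from 44.6 and 50 CPM to 18.2 and 18.4 CPM (log2 fold change −1.37 ± 0.0824 SE, FDR 1.09e-10, edgeR), while Cad changed by −0.32. In the same network the antagonist Mxi1 fell (−1.24, FDR 2.58e-10), the partner Max rose (0.26, FDR 0.0116), and the other 2 genes tested did not pass. Among E2F activators, E2f2 fell from 13.7 and 15.2 CPM to 9.54 and 10.7 CPM (−0.52 ± 0.0999 SE, FDR 0.000307), and E2f1 (−0.18, FDR 0.091) and E2f3 (−0.01, FDR 0.948) did not pass. The pocket proteins Rb1 (−0.48, FDR 5.02e-05) and Rbl2 (−0.46, FDR 5.07e-05), which restrain E2F, were lower too, and the third, Rbl1, did not pass (−0.16, FDR 0.114). Whether these factors had a part in the changes of the 9 genes was not tested.

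**Figure D5:**
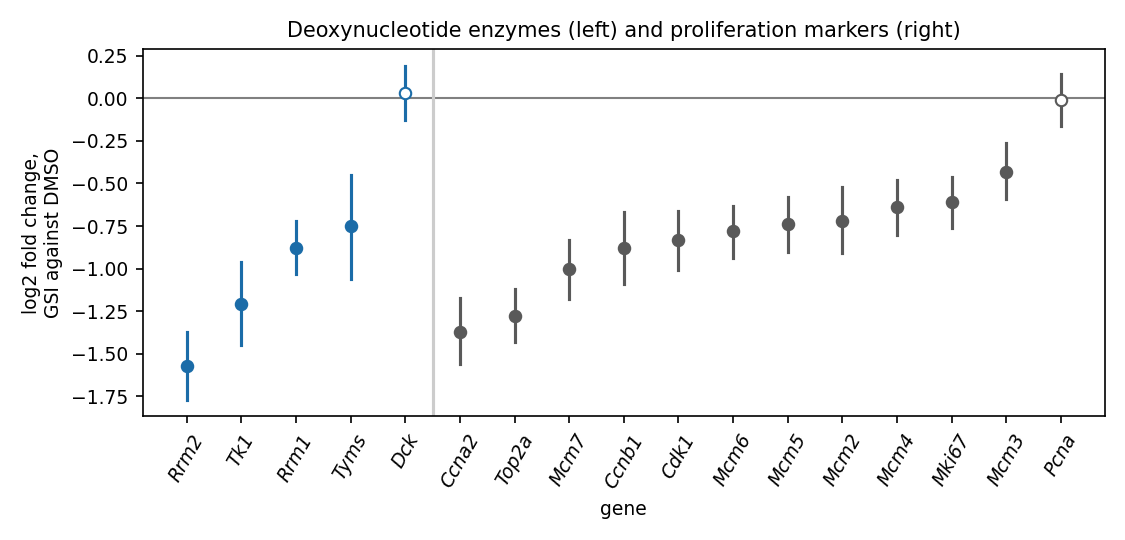
Log2 fold change (GSI against DMSO) of the 5 deoxynucleotide enzymes and of 12 proliferation markers, with 95% intervals from edgeR, with open dots where the FDR was 0.05 or more. Dck (0.03) and Pcna (−0.01) lie at the zero line, and the other 15 genes lie below it.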

How the data were processed

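The authors prepared stranded poly(A) libraries (TruSeq), trimmed reads with Trimmomatic, aligned them to mm10 with STAR (2.5.0a in the submitters' processing notes, which also list mm9) and counted reads per gene with HTSeq, whose mode and strand setting are not given in the sources used here. The deposited values are raw counts per gene for 16 columns, 4 per replicate, whose last number was read as a sequencing run. Within a replicate the 4 runs were apart by no more than about sampling noise (chi-square per degree of freedom 1.01 to 1.03) and were summed to 4 libraries of 42694655 to 56932059 counts. Each column of counts was matched to a sample, which left 0 unused.

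Genes were tested with the quasi-likelihood method of edgeR 4.0.16 in R 4.3.3, with filterByExpr, TMM normalization, group as the sole term and Benjamini-Hochberg adjustment over 13211 genes, tested on simulated data first. The 95% intervals are from the same fit and are not adjusted. Alternatives were other scaling (RLE, none), other filters, a replicate block, 16 separate runs, DESeq2 1.42.0 and leaving out each library. Further genes were named from fixed lists: the neighboring steps of each pathway, then the largest changes past the FDR threshold. Hprt, Aprt, Prps1, Cd34, Top2a, Ccna2, Ccnb1, Mcm5, Guk1, Pnp, E2f2, E2f3, Rb1, Rbl1, Rbl2, Adk, Kit, Csf1r, Cd14, Mertk, Max and Mxi1 were named after their values were seen. Results for 2 genes of the lists are not reported here singly. The members and lists were chosen with earlier results of these data known. Positions are from GENCODE M21 and start sequences from RefSeq, which held all 9 genes.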

Additional observations from a re-analysis of the deposited data

How the results depend on the processing

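Of 99 values of the 9 enzymes under the alternatives, 90 kept their direction and their side of the threshold, as did 263 of 286 values of 26 other named genes. The 4 deoxynucleotide calls held under every alternative. The count of lower synthesis genes, 2, was 1 with DESeq2 and 0 to 2 with 1 library left out (0 without DMSO replicate 2 or GSI replicate 1). The count of lower members was then 4 to 6, and the higher genes of the further lists 8 to 13. Directions turned, for genes without a call, when 1 library was left out: Dck −0.07 to 0.13, Ppat −0.28 to 0.04, Dtymk −0.12 to 0.07, Pcna −0.05 to 0.03, Pfas −0.1 to 0.1 and Impdh1 −0.09 to 0.09. A lone library is there assumed to vary like the rest. Values that round to 0 changed sign for Pfas under either other scaling, the stricter filter and DESeq2, and for Impdh1 with no filter. With only 2 replicate numbers, whose deviations correlated at r = 0.155 across all genes tested and at 0.249 across the 7581 with a mean of at least 10 CPM, the numbers were not shown to pair the libraries; a replicate block raised the genes past the FDR threshold from 5392 to 6444, kept 6 lower members, and brought Rrm2b (FDR 0.0445), Dhodh (0.0292, over all alternatives 0.00653 to 0.232) and E2f1 (0.0382, over all alternatives 0.00104 to 0.427) past it. DESeq2 gave 4222 genes and leaving out a library 4162 to 4978. With 2 libraries an SD rests on 1 difference, and the fewest counts, those of Tyms, limit its precision.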

Other observations

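Enzymes that break nucleotides down moved in both directions. Of 16 such genes 12 had enough counts for the test, with 3 (25%) lower and 6 higher. Among all genes tested 21.9% were lower and 19% were higher. The share of lower genes was thus near the background, and that of higher genes above it. DESeq2 called 4 of the 12 higher. Samhd1, which degrades deoxynucleoside triphosphates in non-dividing myeloid cells, was at 3470 and 3400 CPM with DMSO and at 2910 and 2800 CPM with GSI (log2 fold change −0.27 ± 0.074 SE, FDR 0.00674 by edgeR's quasi-likelihood test), a call lost without DMSO replicate 1 (FDR 0.0573, the largest of its alternatives, which began at 4.78e-13). Relative to Rrm1, the Samhd1 level in CPM per kb of transcript was 65.4 and 64.9 times as high in the controls and 104 and 95.8 times as high with GSI, since Rrm1 fell more. Ada, which deaminates adenosine, fell from 9.6 and 8.34 CPM to 5.88 and 4.43 CPM (−0.79 ± 0.131 SE, FDR 6.04e-05). Pnp, which acts on the product of Ada, rose from 725 and 798 CPM to 916 and 985 CPM (0.32 ± 0.0767 SE, FDR 0.00222). Itpa, which removes deaminated purine triphosphates (0.46, FDR 0.000265), and the pyrimidine nucleotidase Nt5c3 (0.4, FDR 0.000118) were higher too.

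Similar profiles were searched among 7406 protein-coding genes with a mean of at least 10 CPM. The members and all genes of the lists used here, such as the proliferation markers, were left out. The genes whose profile over the 4 libraries was closest to the mean profile of the 5 deoxynucleotide genes were Smc2, Top1, Bcl2l11, Rnf145 and Pdgfb. Their largest difference in any library was 0.0128 to 0.0313 on the log2 scale. Closest to the mean profile of the 4 synthesis genes were Sun1, Tcf12, Stag1, AU019823 and Prkrir, within 0.00749 to 0.0166. With 4 libraries in 2 groups, such likeness reflects little more than a similar fold change.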
